A study of Rattus norvegicus with 24 samples.

Results

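Sperm DNA methylation at postnatal day (PND) 65 was compared between male Wistar rats whose mothers had been fed BDE-47 and males whose mothers had been fed vehicle. All 5327 regions in the authors' list of age-related differentially methylated regions (DMRs) were used, each with 1 deposited level for the BDE-47 PND65 group and 1 for the control PND65 group, along with the 21 PND65 regions among the 30 in the authors' list of exposure-related DMRs. The dams of the BDE-47 group swallowed 0.2 mg/kg of BDE-47 each day between day 8 of pregnancy and PND21, and control dams received the vehicle, tocopherol-stripped corn oil, over the same days. Each group held 6 males, 1 per litter, and a further 6 males per exposure, littermates of these, were sampled at PND120. Sperm came from the cauda epididymis and was purified by swim-up and a density gradient meant to remove somatic cells. The deposited values are levels of groups, not of animals, so the spread between animals is unknown, no test could be made over animals, and every difference below is a description of 2 group values.

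BDE-47 is a polybrominated diphenyl ether, a fat-soluble flame retardant that passes from mother to offspring across the placenta and in milk. Most of the mammalian sperm genome is heavily methylated, while CpG-rich promoters and the genes of developmental regulators are largely free of methylation. Reduced representation bisulfite sequencing reads CpGs on restriction fragments, and so favours such CpG-rich sequence. Methylation is set in the male germ line before birth and is then carried through the divisions of spermatogonia that precede every cohort of sperm.

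Promoter sequences of 3 genes are shown first, because their deposited regions lay wholly within 250 bp before the gene and because they show the CpG-rich kind of sequence in which a nearly unmethylated control level was found. They were chosen after their values were seen. Kcng3 encodes a modulatory subunit of voltage-gated potassium channels, Yaf2 a partner of Polycomb complexes, and Ezh2 the histone H3 lysine 27 methyltransferase of Polycomb repressive complex 2. The sequences are RefSeq promoters of assembly GRCr8, from 250 bases before to 50 after the start, at chr6:16803592-16803891 (plus strand), chr7:126378735-126379034 (minus strand) and chr4:77687134-77687433 (minus strand). Capitals mark every CpG, the dinucleotide whose cytosine can be methylated.
Kcng3: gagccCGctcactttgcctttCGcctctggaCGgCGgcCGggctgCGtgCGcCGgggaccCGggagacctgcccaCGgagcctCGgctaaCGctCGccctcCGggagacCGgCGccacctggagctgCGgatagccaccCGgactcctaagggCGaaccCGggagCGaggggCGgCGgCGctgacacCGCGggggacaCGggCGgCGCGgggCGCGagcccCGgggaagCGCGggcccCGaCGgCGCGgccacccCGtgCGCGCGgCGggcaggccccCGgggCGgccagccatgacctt
Yaf2: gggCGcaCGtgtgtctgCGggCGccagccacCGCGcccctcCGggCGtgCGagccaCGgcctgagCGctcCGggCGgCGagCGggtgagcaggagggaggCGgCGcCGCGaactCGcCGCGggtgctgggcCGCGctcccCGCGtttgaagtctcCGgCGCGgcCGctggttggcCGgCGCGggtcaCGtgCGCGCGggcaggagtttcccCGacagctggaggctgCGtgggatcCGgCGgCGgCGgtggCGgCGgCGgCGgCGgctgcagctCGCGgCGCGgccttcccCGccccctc
Ezh2: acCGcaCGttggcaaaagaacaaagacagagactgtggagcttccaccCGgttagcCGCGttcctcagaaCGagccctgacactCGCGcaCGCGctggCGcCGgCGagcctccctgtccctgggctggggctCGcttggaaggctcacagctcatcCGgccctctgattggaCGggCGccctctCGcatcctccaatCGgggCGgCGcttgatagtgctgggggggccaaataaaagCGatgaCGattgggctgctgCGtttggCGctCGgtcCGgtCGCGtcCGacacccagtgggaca
The promoters of Kcng3, Yaf2 and Ezh2 hold 46, 53 and 30 CpGs, against a median of 7 over the 33469 promoters of that table. CG, which reads the same on both strands, occurs in 94.5% of them. The motif CCGG, also its own reverse complement and holding a CG, is cut by the enzyme that reduced representation libraries use and occurs 9, 5 and 4 times in these 3, and in 51.4% of all promoters. The deposited regions are on assembly rn6, the position of each within the GRCr8 sequence was not determined, and Kcng3 lies on opposite strands in the authors' table and in GRCr8.

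At Kcng3, a region of 3 CpGs spanning 15 bp, 28 bp before the gene, was 31.6% methylated in BDE-47 sperm and 0.416% in control sperm. Near Yaf2, 3 CpGs over 33 bp, 62 bp before the gene, had 24.7% in BDE-47 sperm and 0.496% in control sperm. Before Ezh2, 4 CpGs over 85 bp, 72 bp from the gene, had 10.9% in BDE-47 sperm and 0.264% in control sperm. All 3 were nearly unmethylated in controls and stood between 10.9 and 31.6% in the BDE-47 group. Of the 224 regions placed wholly within 250 bp before a gene, 219 were higher in BDE-47 sperm (97.8%). The share was 93.7% over all 5327 regions and 98.7% over all regions under 1% in control sperm. In the 224 the median difference was 5.65 percentage points (called points below). Their median level was 6.71% in BDE-47 sperm and 0.507% in control sperm. The largest of these differences was that of Kcng3, at 31.2 points.

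Across the whole list the BDE-47 group mostly had more methylation, by a small amount in most regions. BDE-47 sperm had a higher level than control sperm in 4990 of the 5327 regions (93.7%), a lower one in 335, and the same in 2. The median level was 8.54% in BDE-47 sperm and 0.936% in control sperm, and the median difference was 5.65 percentage points, with quartiles of 4.05 and 7.67. A difference of at least 5 points upward was found in 3190 regions (59.9%), and at least 5 points downward in 124 (2.33%). Nearly unmethylated regions marked the contrast: 2707 regions were under 1% in control sperm, while 52 were under 1% in BDE-47 sperm. In the 2 regions of equal level, in Man1a1 and Efhd2, both groups were listed at 0%.

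The way the list was made touches every one of these values. Regions entered it for a difference between PND65 and PND120. The PND65 controls are one side of the age difference in controls as well as of this one. The PND65 BDE-47 group is likewise one side of the age difference in BDE-47 animals. In 5287 of the 5327 regions controls had more methylation at PND120, and a low value of the PND65 control group by chance cannot be told apart from an effect of exposure. BDE-47 levels were higher in 94.2% of those 5287 regions (median 5.66 points), and in 30% of the 40 regions where controls had less methylation at PND120 (median -2.87 points). In 11 regions controls of the 2 ages differed by less than 5 points, and 7 of these were higher in BDE-47 sperm and 4 lower. Here too the sign went with the control change. Of the 7 where controls rose with age, 6 were higher (median 8.30 points over the 7). Of the 4 where controls fell, 1 was higher (median -2.87 points over the 4). The 11 ran from 38.1 points higher at Syt7 to 11.9 points lower (-11.9) near Cox18. Among them Mef2a, a muscle and neuronal transcription factor gene, had 47.8% in BDE-47 sperm and 27.8% in control sperm. BDE-47 levels of the 2 ages differed by at least 5 points in each of the 11, as at Mef2a, with 34.6% at PND120. In these regions a PND65 BDE-47 value high or low by chance cannot be told apart from an effect of exposure.

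**Figure D1:**
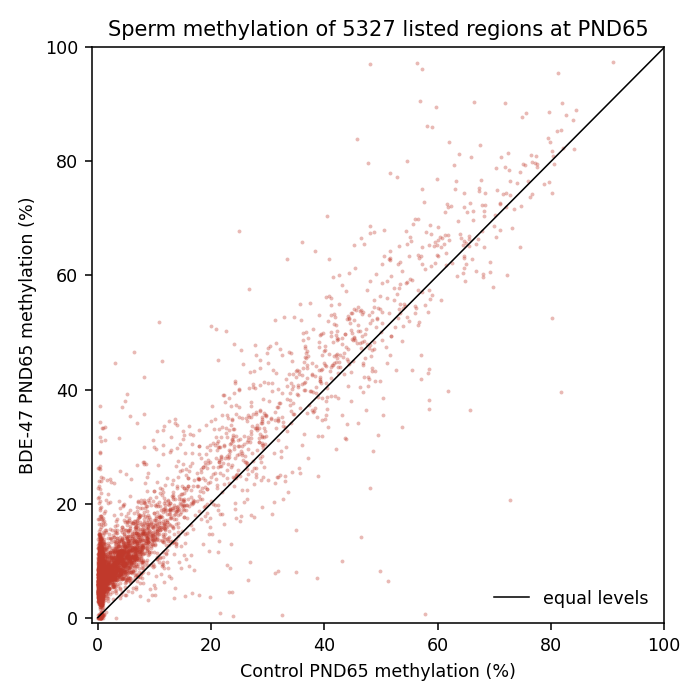
Methylation level of each of the 5327 regions in BDE-47 PND65 sperm (y axis, %) against control PND65 sperm (x axis, %), 1 point per region and 1 value per group, with the line of equal levels. Most points lie at the left edge, where controls were under 1% (2707 regions) and BDE-47 sperm had a median of 6.22%, and the few points far below the line have higher control levels.

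The difference varied with the control level. That level is also subtracted to form the difference, so a control value low by chance both raises the difference and puts the region in a lower class. The classes are therefore given as a description. In the 2707 regions under 1% in control sperm, 2671 were higher in BDE-47 sperm (98.7%), the median levels were 6.22% in BDE-47 sperm and 0.454% in control sperm, and no region was 5 points or more lower, which a level under 1% does not allow. The quartiles of the difference there were 4.45 and 7.51 points. The 1459 regions of 1 to 10% differed by a median of 5.87 points, with medians of 10.2% in BDE-47 sperm and 4.12% in control sperm. The low-methylated regions thus shared a narrow shift of similar size.

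From 10% upward the differences spread in both directions. At 10 to 30% in controls, 492 of 598 regions were higher in BDE-47 sperm, by a median of 5.09 points over all 598 and quartiles of 1.60 and 8.22. At 30 to 70% in controls, 356 of 504 were higher, with a median difference of 3.90 points and quartiles of -1.35 and 8.43, and 77 regions (15.3%) were at least 5 points lower. At 70% or more, 59 regions differed by a median of 2.47 points, and 41 were higher. Of the 124 regions at least 5 points lower in BDE-47 sperm, 83 had a control level of at least 30% and 2 a level under 10%.

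Region length and number of CpGs moved with the control level. Regions under 100 bp, 2038 in number, had medians of 6.76% in BDE-47 sperm and 0.535% in control sperm, while the 943 regions of at least 10 kb had medians of 32.7% in BDE-47 sperm and 27.4% in control sperm. The median difference was alike, 5.60 and 5.52 points, but the share of higher regions was 98.0% in the short and 80.5% in the long ones. Of the 124 regions at least 5 points lower, 90 (72.6%) were at least 10 kb long, against 17.7% of all regions. That base is not matched for control level. At 30 to 70% in controls, 61 of the 77 regions at least 5 points lower were that long, and so were 386 of all 504. Among regions under 1% in controls the median difference was 5.59 points under 100 bp and 7.78 points at 10 kb or more, so there the long regions had the larger one. Regions with 3 to 4 CpGs had a median difference of 5.91 points, those with 5 to 9 CpGs 5.38 points, and those with at least 10 CpGs 4.87 points, where the control median was 24.4%.

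**Figure D2:**
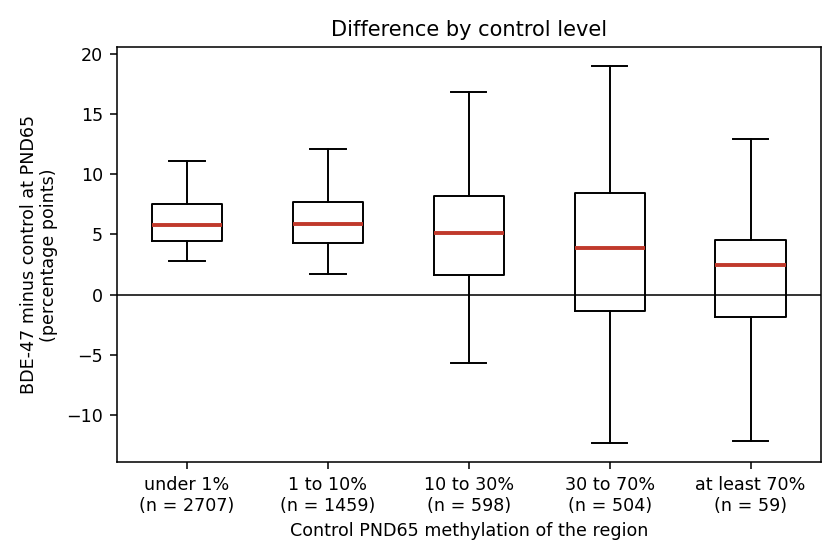
BDE-47 minus control methylation at PND65 (percentage points) for regions grouped by control level; the line is the median over regions, the box the quartiles, the whiskers the 5th and 95th percentiles, and no box shows the spread of animals. The box is narrow and above 0 under 10% and reaches below 0 from 30% upward, where the medians are 3.90 and 2.47 points. The control level is part of both axes.

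Regions in and outside genes had close values. The median difference was 5.60 points in the 4246 regions placed at a gene body. It was 5.74 points in the 597 with their nearest edge within 1 kb upstream, and 5.69 points in the 484 others. The shares of higher regions were 93.4%, 96.0% and 93.0% in the same order. Among the 20 autosomes, the median difference ran from 5.12 points on chromosome 9 to 6.23 points on chromosome 11, and the share of higher regions from 90.4% on chromosome 12 to 96.6% on chromosome 13. Chromosome X stood apart in spread: 29 of its 42 regions (69.0%) were higher in BDE-47 sperm, and the quartiles of the difference were -0.566 and 14.9 points around a median of 6.05. Its 25 regions of at least 10% in controls had a median length of 135566 bp and medians of 35.1% in BDE-47 sperm and 24.0% in control sperm. The matching autosomal regions had a median length of 16486 bp and 76.9% of them were higher, against 60% of the 25 on X.

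The 10 regions furthest above control reached differences of 34.1 to 49.0 points. A region in Fem1a, which encodes a substrate receptor of a cullin ubiquitin ligase, had 97.1% in BDE-47 sperm and 48.1% in control sperm over 5 CpGs, on chromosome 9 from 10797377 to 10800383. In Clstn3, for the synaptic adhesion protein calsyntenin-3, 3 CpGs on chromosome 4 from 157056706 to 157075112 had 97.3% in BDE-47 sperm and 56.3% in control sperm. LOC103693877 had 96.3% in BDE-47 sperm and 57.2% in control sperm. These were regions of intermediate level in controls and close to full methylation in the BDE-47 group, a pattern of at least 90% against under 70% that 5 regions of the list had.

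Other members of that set had lower control levels. Syt7, the gene of a synaptotagmin that senses calcium in vesicle release, had 83.9% in BDE-47 sperm and 45.8% in control sperm over 10 CpGs. At Fgf16 on the X chromosome, a fibroblast growth factor gene, the levels were 67.8% in BDE-47 sperm and 24.9% in control sperm. In Pcdh9, a protocadherin gene, they were 51.9% in BDE-47 sperm and 10.8% in control sperm, but over 3 CpGs spread along 445055 bp. Ube2g1, a ubiquitin-conjugating enzyme gene, had a compact region of 17 bp with 46.5% in BDE-47 sperm and 6.36% in control sperm. The region near LOC298789 had 44.7% in BDE-47 sperm and 3.00% in control sperm. Commd7, with 12 CpGs the member with the most, had 42.2% in BDE-47 sperm and 8.10% in control sperm. Rnpc3, a protein gene of the minor spliceosome, was almost unmethylated in controls, with 37.2% in BDE-47 sperm and 0.459% in control sperm.

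The 10 regions furthest below control, by 29.2 to 57.1 points, were all over 3 kb long. The authors' annotation placed all 10 at a gene body, meaning a distance of 0 and not that each lay wholly inside. The region in Ppid, which encodes the Hsp90 co-chaperone cyclophilin 40, had 0.645% in BDE-47 sperm and 57.7% in control sperm, over 3 CpGs on chromosome 2 from 178350770 to 178389443. Clp1, the gene of an RNA kinase in RNA processing, likewise had 0.513% in BDE-47 sperm and 32.4% in control sperm. Cd2bp2, which encodes a component of the spliceosome, had 6.35% in BDE-47 sperm and 51.2% in control sperm. Levels under 1% in the BDE-47 group with at least 10% in controls were found in 4 regions, which were Ppid, Clp1, Syngr4 and Rwdd3.

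The remaining members of the lower set kept some methylation. The cadherin gene Cdh7 had 20.7% in BDE-47 sperm and 72.7% in control sperm. Csmd1, a gene for a large membrane protein with complement control domains, had 8.17% in BDE-47 sperm and 49.8% in control sperm. In Nqo2, a quinone reductase gene, the levels were 14.1% in BDE-47 sperm and 46.4% in control sperm, for 9 CpGs within 571802 bp. Atad2b, a bromodomain ATPase gene, had 6.93% in BDE-47 sperm and 38.7% in control sperm. RGD1562532, LOC100364769 and LOC103691207 were lower by 42.2, 33.3 and 29.2 points (differences of -42.2, -33.3 and -29.2). A region this long may span other genes, so the gene given is only the one that the authors' annotation placed closest.

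**Figure D3:**
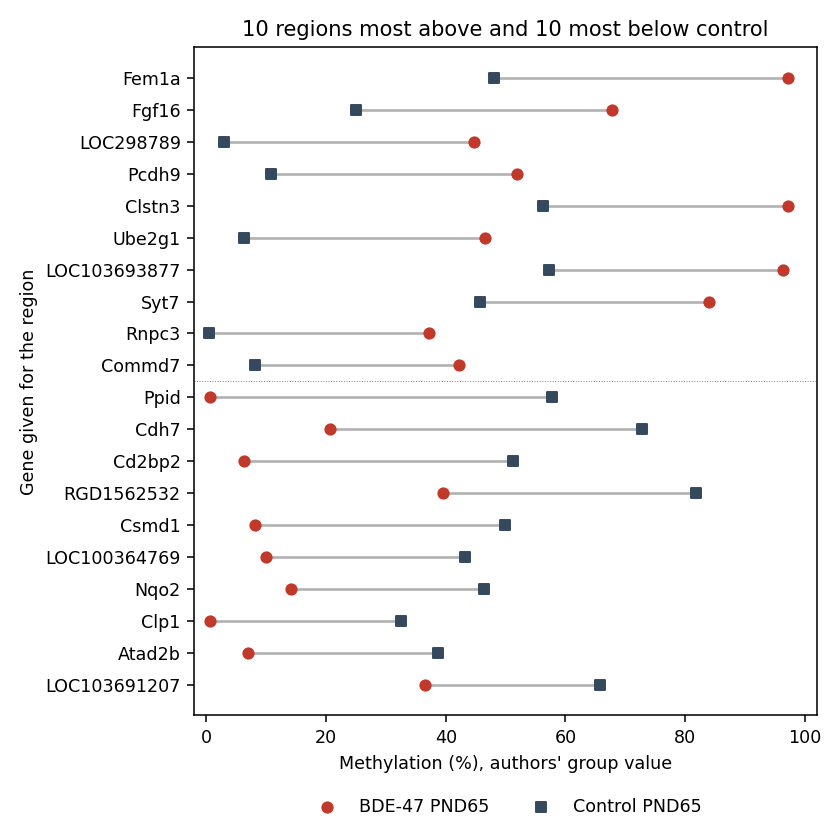
Methylation (x axis, %) in BDE-47 PND65 sperm (circles) and control PND65 sperm (squares) for the 10 regions furthest above control, top, and the 10 furthest below, bottom; each point is the authors' value for a group and has no error. Fem1a, Clstn3 and LOC103693877 lie above 96% in BDE-47 sperm, and Ppid and Clp1 below 1%.

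Differences of at least 20 points at PND65 were present with the same sign in the PND120 groups, which are other males of the same litters. Of 83 regions at least 20 points higher in BDE-47 sperm at PND65 (1.56% of the list), all 83 were higher at PND120, 77 of them by at least 5 points and 30 by at least 20. Of 21 regions at least 20 points lower (0.394%), all 21 were lower at PND120 and 20 of them by at least 20 points. With a limit of 10 points, 336 of 594 higher regions (11.2% of the list) and all 57 lower ones (1.07%) kept the sign. At Ppid the PND120 levels were 0.746% in BDE-47 sperm and 62.9% in control sperm, and at Fem1a they were 97.0% in BDE-47 sperm and 59.3% in control sperm. The 83 regions had median differences of 26.2 points at PND65 and 16.1 points at PND120, and the 21 had -27.7 points at PND65 and -38.8 points at PND120. Shared litters and the listing by age both tie the values of the 2 ages together, so the PND120 values are no independent repeat.

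The sign of the difference at PND120 went with how much a region differed at PND65. The control level changed with age by a median of 9.12 points in the 83 regions, 7.41 points in the 21 and 9.31 points in the 2855 regions 4 to 8 points higher in BDE-47 sperm, while the BDE-47 level changed by 0.129, -0.228 and -0.452 points in the same order. A control gain with an unchanged BDE-47 level turns a positive difference smaller than the gain negative. It leaves the sign of a larger positive difference, or of a negative one, as it was. The regions were listed for age differences, so neither count is read as a separate finding about exposure. Among the 2855 regions 4 to 8 points higher in BDE-47 sperm at PND65, 66 were higher at PND120, and the median differences were 5.72 points at PND65 and -4.05 points at PND120. In the 5280 regions where controls gained at least 5 points, the BDE-47 level at PND65 stood at a median of 60.6% of the way along the control gain, with quartiles of 48.6% and 71.2%. For regions under 1% in controls that position was 60.7%, with quartiles of 51.9% and 68.3%. The position contains the control PND65 level in both of its terms and is given as a description.

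**Figure D4:**
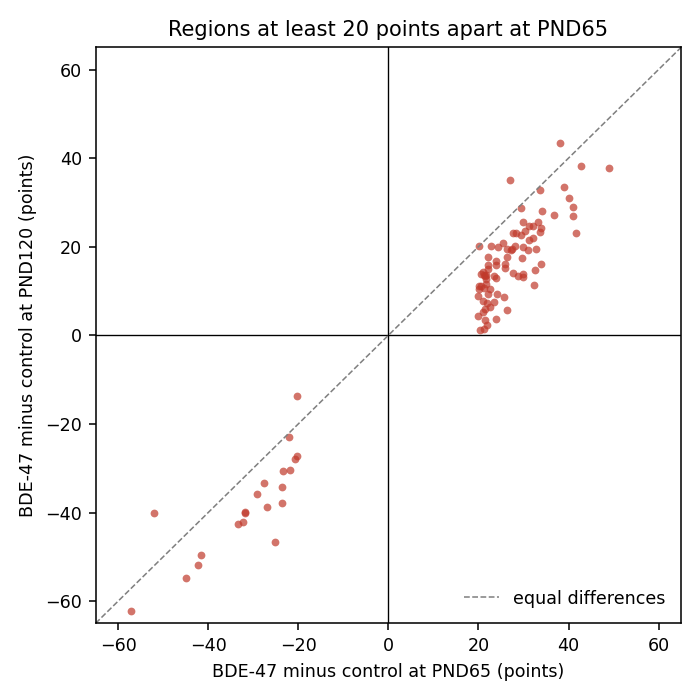
BDE-47 minus control methylation at PND120 (y axis, percentage points) against the same difference at PND65 (x axis) for the 104 regions at least 20 points apart at PND65, with a dashed line of equal differences. All 83 regions to the right lie above 0, and all 21 to the left lie below 0, and most points of either side lie under the dashed line.

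The gene lists are read against all 5327 regions, of which 93.7% were higher in BDE-47 sperm and 59.9% at least 5 points higher, and a list near these shares shows nothing of its own. Homeobox and patterning transcription factors, which set cell identity along the body axes, had 192 regions at 93 genes, of which 188 were higher in BDE-47 sperm, 126 by at least 5 points (65.6%, beside 59.9% of all regions), and the median difference was 6.15 points. The 17 regions of 13 Hox genes were all higher, near the share over all regions, by 0.628 to 19.3 points and a median of 7.79 points. Hoxb3 had 55.0% in BDE-47 sperm and 35.6% in control sperm over 14 CpGs in its gene body, and Hoxd9 had 13.9% in BDE-47 sperm and 0.415% in control sperm. Near Pax5, a regulator of B cell identity, the levels were 29.8% in BDE-47 sperm and 14.0% in control sperm. The Iroquois gene Irx1 went the other way in a region 17976 bp away, with 19.4% in BDE-47 sperm and 29.0% in control sperm.

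Signalling genes of the Wnt, Hedgehog, BMP, FGF and Notch pathways had 99 regions at 66 genes, with 94 higher in BDE-47 sperm (94.9%, beside 93.7% of all regions) and 54 by at least 5 points (54.5%, beside 59.9%). Their median difference was 5.45 points, beside 5.65 points over all regions. Among ligands, the 18 regions of 13 Wnt genes had a median difference of 8.22 points, and 17 were higher. Wnt7b had 41.6% in BDE-47 sperm and 24.2% in control sperm in a region 224 bp upstream, and Wnt9a had 17.2% in BDE-47 sperm and 3.31% in control sperm. Among receptors, the 6 regions of 5 Frizzled genes, which bind Wnt ligands, had a median difference of 5.01 points. Bmpr2, the type II BMP receptor gene, was lower, with 31.9% in BDE-47 sperm and 38.8% in control sperm over 14 CpGs. Downstream, the transcription factor gene Tcf7l1 had 12.3% in BDE-47 sperm and 0.116% in control sperm.

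Genes of DNA methylation and of chromatin modification and remodelling had 75 regions at 45 genes, of which 72 were higher in BDE-47 sperm (96.0%, beside 93.7% of all regions) and 56 by at least 5 points (74.7%, beside 59.9%). Their median difference was 6.42 points, beside 5.65 points over all regions. Their control levels were low, with a median of 0.730% beside 0.936% over all regions. The histone acetyltransferase gene Ep300 had 21.2% in BDE-47 sperm and 0.159% in control sperm over 4 CpGs within 40 bp. In the methyl-CpG binding domain family, Mbd3 had 19.3% in BDE-47 sperm and 0.596% in control sperm, and Mbd6 had 69.0% in BDE-47 sperm and 55.7% in control sperm. All 12 regions of 8 Kdm genes, named for histone lysine demethylases, were higher, near the 93.7% of all regions, with a median difference of 7.01 points. Setd1b, which encodes a histone H3 lysine 4 methyltransferase, was lower, with 34.6% in BDE-47 sperm and 39.6% in control sperm.

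Adhesion genes had 42 regions, 39 of them higher (92.9%, beside 93.7% of all regions) and 26 by at least 5 points (61.9%, beside 59.9%). Their median difference was 6.10 points, and their extremes were Pcdh9 and Cdh7, described above. Pcdh8 had 31.5% in BDE-47 sperm and 3.78% in control sperm over 3 CpGs, and a second Pcdh9 region, 336 bp upstream, had 14.7% in BDE-47 sperm and 0.175% in control sperm. Synaptic genes had 64 regions, 59 of them higher (92.2%, beside 93.7% of all regions) and 33 by at least 5 points (51.6%, beside 59.9%), with a median difference of 5.20 points. Besides Syt7, the neurexin gene Nrxn2 had 80.1% in BDE-47 sperm and 54.7% in control sperm. The calcium channel genes split: Cacna1h had 39.0% in BDE-47 sperm and 22.3% in control sperm, and Cacna1b, 182 bp upstream, had 9.29% in BDE-47 sperm and 22.8% in control sperm.

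Genes of insulin, mTOR and nutrient signalling had 40 regions at 26 genes, of which 39 were higher (97.5%, beside 93.7% of all regions) and 25 by at least 5 points (62.5%, beside 59.9%). Their median difference was 5.86 points. Nprl3, part of the GATOR1 complex that restrains mTORC1, had 66.0% in BDE-47 sperm and 36.0% in control sperm. The kinase gene Gsk3b had 11.7% in BDE-47 sperm and 0.391% in control sperm, and the stress-induced Sesn2 had 18.5% in BDE-47 sperm and 8.08% in control sperm. Deptor, which encodes a protein bound to mTOR, held the lower region of the list, with 36.7% in BDE-47 sperm and 38.4% in control sperm. All 6 regions of the transcription factor genes Foxo1, Foxo3 and Foxo6 were higher, near the share over all regions, by 4.50 to 7.37 points.

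Xenobiotic sensing and metabolism was a small list of 9 regions at 9 of 51 genes, and all 9 were at least 5 points higher in BDE-47 sperm, beside 59.9% of all regions, by 5.00 to 15.5 points and a median of 7.25 points. The lowest of the 9, at 5.00 points, lay at the limit of that count. The dioxin-inducible monooxygenase gene Cyp1a1 had 39.4% in BDE-47 sperm and 24.0% in control sperm over 8 CpGs within 11133 bp. Cyp2d4, another monooxygenase gene, had 53.1% in BDE-47 sperm and 41.1% in control sperm. Gclm, for a subunit of the enzyme that starts glutathione synthesis, had 15.2% in BDE-47 sperm and 6.43% in control sperm. Upstream of Ppara, the fatty acid receptor, the levels were 13.6% in BDE-47 sperm and 5.64% in control sperm. Nfe2l2, which encodes the oxidative stress regulator NRF2, had 8.16% in BDE-47 sperm and 0.910% in control sperm.

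Thyroid hormone and steroid genes had 11 regions at 6 of 54 genes, 9 of them higher (81.8%, beside 93.7% of all regions) and 5 by at least 5 points (45.5%, beside 59.9%), with a median difference of 4.60 points. Thrb, the thyroid hormone receptor beta gene, had 9.35% in BDE-47 sperm and 0.629% in control sperm, and Inhbb, for an inhibin and activin subunit, had 6.42% in BDE-47 sperm and 0.252% in control sperm. At Nkx2-1, a thyroid and lung transcription factor gene, the levels were 6.27% in BDE-47 sperm and 0.607% in control sperm. Nr5a1, the gene of steroidogenic factor 1, held both lower regions, and its largest one had 15.9% in BDE-47 sperm and 19.7% in control sperm. Genes of spermatogenesis had 8 regions, all higher, where 93.7% of all regions were, by 2.92 to 7.89 points. Tssk6, a testis kinase gene, had 11.0% in BDE-47 sperm and 4.25% in control sperm, Tekt1, a flagellar filament gene, had 5.99% in BDE-47 sperm and 0.544% in control sperm, and a region 64117 bp from Pmfbp1 had 10.4% in BDE-47 sperm and 2.51% in control sperm.

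Few regions bear on the identity of the cells. Genes that are unmethylated in germ cells and methylated in somatic cells were represented by Tdrd6, with 5.23% in BDE-47 sperm and 0.328% in control sperm, and by a region of 154822 bp near Zfp42, with 42.9% in BDE-47 sperm and 42.3% in control sperm. The list of imprinted genes marked on the maternal side had 4 regions. Jade1, known in mouse for an imprint carried by histone marks, had 2 regions, with 8.41% and 7.78% in BDE-47 sperm and 0.444% and 0.217% in control sperm. Trappc9, whose locus holds the imprinted Peg13, had 11.5% in BDE-47 sperm and 4.58% in control sperm, and a region 8121 bp from Nnat had 66.5% in BDE-47 sperm and 67.0% in control sperm. Imprinted genes with paternal germline methylation had 0 regions among 10 genes, so a full check of the label was not possible. The part of other cells in the BDE-47 difference was not tested.

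Neighbouring regions of a gene mostly shared the sign and differed in size. Of 216 genes with 3 or more regions, 188 had all of them higher in BDE-47 sperm. The 93.7% of all 5327 regions that were higher is a share of single regions and not of genes. Whether regions of a gene shared the sign more often than that share alone gives was not tested. The median distance between a gene's lowest and highest difference was 4.69 points. The 7 regions of Ptch1, the Hedgehog receptor gene, differed by 1.72 to 11.3 points, with levels of 3.17 to 14.6% in BDE-47 sperm and 0.314 to 6.63% in control sperm. The smallest and largest lay beside each other in its gene body. The 7 regions of the orphan nuclear receptor gene Nr2e1 differed by 3.56 to 7.82 points, and the 7 of the repressor gene Zbtb7a by 3.58 to 7.96 points. Skor1 had 6 regions, 3.30 to 12.7 points higher. Among genes with 5 regions, Bahd1, Barhl2, Ece2, Egr4, Tnrc18, Trim36 and Zswim6 had all 5 higher. Their median differences ran from 3.80 points at Zswim6 to 7.18 points at Barhl2, a homeobox gene of the nervous system. The forkhead gene Foxb1 had 4 regions higher and 1 lower, the last with 11.0% in BDE-47 sperm and 16.4% in control sperm. Such regions share animals and reads and are not independent.

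The exposure list, made by the authors for this very contrast, looked different. Its 21 PND65 regions held 3 to 10 CpGs, with a median of 4, and were 14 to 449 bp long. In the authors' deposited table the changes ran from 5.00 to 40.0 points in size with a median of 15.1, and 16 carried a negative sign and 5 a positive one. Of the 21, 9 lay in a gene body (42.9%), against 79.7% of the 5327 age regions. These shares were not matched for length, and 27.4% of the age regions were over 1 kb long. The other 12 exposure regions were 2.24 to 55.2 kb from the nearest gene. A gene with only a LOC or RGD identifier was given for 11 of the 21.

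**Figure D5:**
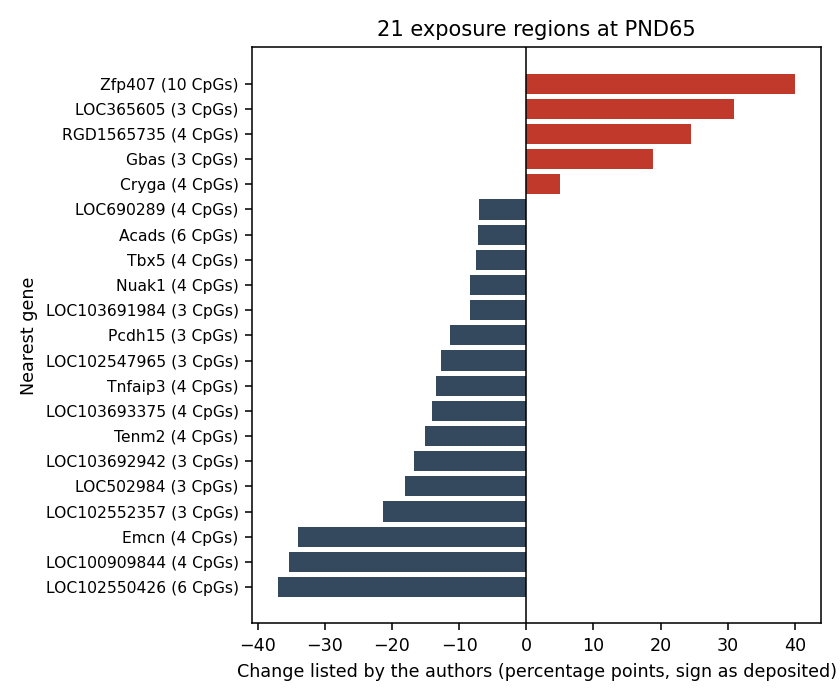
Change in methylation (x axis, percentage points, sign as deposited and read as BDE-47 minus control) at the 21 exposure regions of PND65, named by nearest gene and number of CpGs; bars carry no error. The 5 positive bars reach 40.0 points near Zfp407, and the 16 negative ones reach -36.9 points near LOC102550426.

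The 2 lists hardly met. One exposure region overlapped an age region, and the median gap from an exposure region to the nearest age region on its chromosome was 256 kb. None of the 104 age regions at least 20 points apart at PND65 overlapped an exposure region, beside 1 of all 5327 age regions. With so few overlaps in the whole list, that count shows nothing about the 104. The overlap was near LOC365605 on chromosome 20, where the authors' deposited table gives a change of 30.98 points over 3 CpGs from 50616551 to 50616694. The age region there, 11 CpGs over 33452 bp, had 19.6% in BDE-47 sperm and 8.58% in control sperm. Which group the signed change is relative to is not given, and its reading as BDE-47 minus control rests on this region alone.

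At 2 further genes of the exposure list that also had age regions, the signs were opposite under that reading. At Tbx5, a heart and limb transcription factor gene, the authors' deposited table gives -7.46 points 51.2 kb from the gene. The 2 age regions inside Tbx5 had 5.00% and 10.6% in BDE-47 sperm and 0.600% and 4.16% in control sperm. Near Nuak1, a gene of an AMPK-related kinase, the authors' deposited table gives -8.38 points 34.5 kb away, while 2 age regions just upstream had 5.21% and 9.92% in BDE-47 sperm and 0.707% and 3.87% in control sperm. The regions lie far from each other, and their signs were not compared by a test.

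Of the 21 regions, 2 were listed again at PND120 with the same sign. Near the zinc-finger gene Zfp407, the authors' deposited table gives 40.0 points over 10 CpGs at PND65 and 40.9 points over 12 CpGs at PND120. At LOC100909844 that deposited table gives -35.4 points over 4 CpGs at PND65 and -25.4 points over 5 CpGs at PND120. Near Emcn, which encodes an endothelial sialomucin, the change of -34.0 points in the authors' deposited table was given for PND65 only, for 4 CpGs within 37 bp. In gene bodies, the largest positive change of the deposited table was 18.8 points in Gbas, a mitochondrial protein gene, and negative ones included -15.1 points in the teneurin gene Tenm2, -13.4 points in Tnfaip3, an inhibitor gene of NF-kB signalling, and -11.4 points in the protocadherin gene Pcdh15. The smallest gene body changes with a named gene were -7.22 points in Acads, a gene of fatty acid oxidation, and 5.00 points in the lens crystallin gene Cryga, both from the authors' deposited table. By size, 6 of the 21 changes in the authors' deposited table were under 10 points, 8 between 10 and 20, and 7 over 20.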

How the data were processed

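Rat sperm DNA from the cauda epididymis went into reduced representation bisulfite libraries. Per the submitters' processing notes and design text, reads were mapped to rn6 with Bismark 0.16.1 and Bowtie2 2.2.9, duplicates were removed with nudup 2.2, CpGs with 10 or more reads were kept, DMRs were called with MethPipe, and closest-features 2.4.25 gave the nearest gene. Per the file headers, a listed region needed 3 or more CpGs and a q below 0.05. The authors deposited each group's level as a fraction from 0 to 1. Whether it averages animals, reads or CpGs is not given in the sources used here. The authors also deposited the count of CpGs per region. In their exposure table each region has 1 signed change, in percentage points.

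Fractions were multiplied by 100, and the control PND65 level was subtracted from the BDE-47 PND65 level, with pandas 2.3.3 in Python 3.11.15. A difference of 5 points was the size used for counting. Upstream meant within 1 kb before the gene by strand. The summary code was tested on simulated data. No column holds single animals, so there are no depths, spreads or p-values. Coordinates are as the tables give them, on rn6. Of 4131 gene names, 3617 matched a current RefSeq symbol of GRCr8 and 155 an older one. The regions and the 12 gene lists were chosen with earlier results of these data known. Named regions were the 10 largest differences each way, the 3 highest and the lowest region below control per list, the genes with most regions and the exposure regions. Any other region named was chosen after its values were seen. One gene that this rule names is not reported here.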

Additional observations from a re-analysis of the deposited data

How the results depend on the processing

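The median difference at the age regions was positive and within 1.5 times of 5.65 points under all 8 alternatives run for it. The shares moved. In the order higher, at least 5 points higher and at least 5 points lower in BDE-47 sperm, they were 85.3%, 48.6% and 4.43% with at least 10 CpGs, 76.6%, 46.2% and 10.5% with a control level of at least 10%, and 70.5%, 40.9% and 14.7% with at least 30%. They were 91.6%, 55.0% and 2.81% with regions weighted by CpGs, and 63.6%, 45.5% and 9.09% in the 11 regions where controls changed by under 5 points with age. Among those 11, 6 of the 7 that rose in controls were higher in BDE-47 sperm, and 1 of the 4 that fell. The BDE-47 level of each of the 11 changed by at least 5 points with age, so the listing bears on them too. The shares higher and at least 5 points lower were 91.0% and 3.65% in regions of at least 100 bp, and 97.5% and 0.336% in regions of at most 1 kb. With 10 points in place of 5, 11.2% were higher and 1.07% lower. Leaving out chromosome X and placing upstream within 5 kb left each value near its own. Among the gene lists, counting only regions in or just upstream of genes moved the germline list, which was left with 1 region and a difference of 4.90 points. With its sign turned, the exposure table has 76.2% of its PND65 regions higher in BDE-47 sperm, in place of 23.8%. The cause of the other shifts was not tested.

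No paired analysis was possible because the columns carry group values with no replicate numbers, and for the same reason leaving out each animal in turn was not run. The depth of single regions is unknown.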
